A study of Homo sapiens with 6 samples.

Results

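The 45 genes described here code for receptor tyrosine kinases other than those of the insulin family. They were taken by name from a list of the ErbB, MET, TAM, FGF, PDGF, VEGF, DDR, Eph, ROR, RYK and PTK7, TIE, RET, TRK and ALK/LTK/ROS1 receptors, with INSR and IGF1R left out, and all 45 were among the 21619 genes counted. The cells were MDA-MB-231, an established line of human triple-negative breast cancer, and carried ribosomal protein L10a fused to EGFP, so that ribosomes and the mRNAs on them could be pulled down with an antibody to GFP (translating ribosome affinity purification, TRAP). All 6 cultures were held for 24 h in 0.2% serum and harvested after a further 6 h, and each of 3 groups had 2 biological replicates, a and b: untreated cells (0 ng/mL of both factors), cells given a lower dose (CXCL12 at 30 ng/mL, IGF1 at 10 ng/mL) and cells given a higher dose (CXCL12 at 300 ng/mL, IGF1 at 100 ng/mL). Polyadenylated RNA of the pull-down was sequenced to 26255079 to 30280322 reads on genes per library. The factors were given together, so that their parts cannot be told apart, and a level here is relative to all pulled-down mRNA: a change of its abundance and a change of its ribosome association cannot be told apart, nor can fewer cells with an mRNA and less of it per cell.

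Receptor tyrosine kinases span the membrane once, bind a growth factor, a membrane-tethered ephrin or collagen outside the cell, and pair up so that their kinase domains phosphorylate one another. The phosphotyrosines recruit adaptors that lead to RAS and PI3K, and phosphatases, ubiquitin ligases such as CBL and shedding proteases end the signal. IGF1 acts through a receptor of the insulin family, which is not described here, while CXCL12 acts through the chemokine receptors CXCR4 and ACKR3, which are not kinases. In basal breast cancer lines EGFR, MET and AXL are the best known of the growth factor receptors. A few members (ERBB3, PTK7, RYK) have a kinase domain with little or no activity and signal through partners.

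The libraries carried the markers of this line: VIM, a mesenchymal filament, had 3749 and 3589 CPM (a gene's reads scaled to the library's reads on tested genes, with a TMM scaling factor) in the untreated libraries, 2953 and 2984 CPM at the lower dose and 2691 and 2681 CPM at the higher dose. CD44 and FN1 also fell at the higher dose against untreated cells, with 749 and 741 CPM against 941 and 933 CPM for CD44, and 238 and 229 CPM against 360 and 382 CPM for FN1. The luminal breast genes ESR1, PGR, CDH1 and FOXA1 had 0 to 13 reads in a library, and GATA3 had 247 to 319. Of the 5 endothelial markers, CDH5 had 0 reads in every library, EMCN, VWF and CLDN5 had 0 to 8 and PECAM1 had 32 to 55. Of the 5 blood cell markers, CD3E had 0 reads in every library, PTPRC and HBB had 0 to 14, CD14 had 224 to 458 and CD68 had 7039 to 8367. CD14 fell at the higher dose against untreated cells (log2 fold change -0.77, adjusted p = 3.78e-10) and CD68 fell by 0.13 (adjusted p = 0.000161), and their part in the receptor results was not tested. A count of 0 allows up to 3 reads, which are 0.0991 to 0.114 CPM by reads on all genes alone, and such limits cover counting error only.

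A few receptors made up most of the receptor mRNA on ribosomes. Divided by transcript length, AXL, the receptor for the vitamin K-dependent protein GAS6, was the most abundant at a mean of 235 CPM per kb over the 6 libraries. EPHA2, an ephrin-A receptor of epithelial cells, followed at 101 CPM per kb, PTK7, a Wnt-linked pseudokinase, at 36.5 and FGFR1 at 24.7. The ranges of these 4 receptors over the libraries did not overlap: 211 to 254 CPM per kb for AXL, 86.6 to 121 for EPHA2, 29.2 to 46.1 for PTK7 and 24.0 to 25.2 for FGFR1. MET, RYK, DDR1, EGFR, ERBB2 and EPHB4 came next, with means of 16.8, 16.5, 15.0, 13.8, 13.8 and 12.5 CPM per kb, and each of these ranges overlapped that of its neighbour in the order. AXL alone held 44.4% to 46.6% of the summed receptor level of a library, and the top 5 receptors held 80.7% to 81.1%. With coding length in place of transcript length AXL (416 CPM per kb) and EPHA2 (137) again led, FGFR1 (58.5) stood above PTK7 (48.2), and EGFR (37.4) moved to rank 5.

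10-fold steps of the same level split the 45 receptors unevenly. There were 10 receptors at 10 CPM per kb or more and 7 from 1 to under 10, namely EPHB2, ROR1, MERTK, TYRO3, EPHA4, FGFR4 and MST1R. A further 12 lay between 0.1 and 1, from ERBB3 (0.964) and KDR (0.856) down to EPHA7 (0.141) and NTRK2 (0.137). The other 16 were under 0.1 CPM per kb. Of these 16, EPHB1, KIT and EPHA3 passed the filter on low counts, and 13 did not and were not tested. The untested receptors were DDR2 with 5 to 16 reads in a library, EPHA1 with 2 to 7, FGFR2 with 1 to 6, PDGFRA with 0 to 5, ERBB4 and TEK with 0 to 4, ROS1 with 0 to 3, EPHB6 with 2 to 3, RET with 0 to 2, and FLT4, NTRK3 and ALK with 0 or 1. ROR2 had 0 reads in every library.

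**Figure D1:**
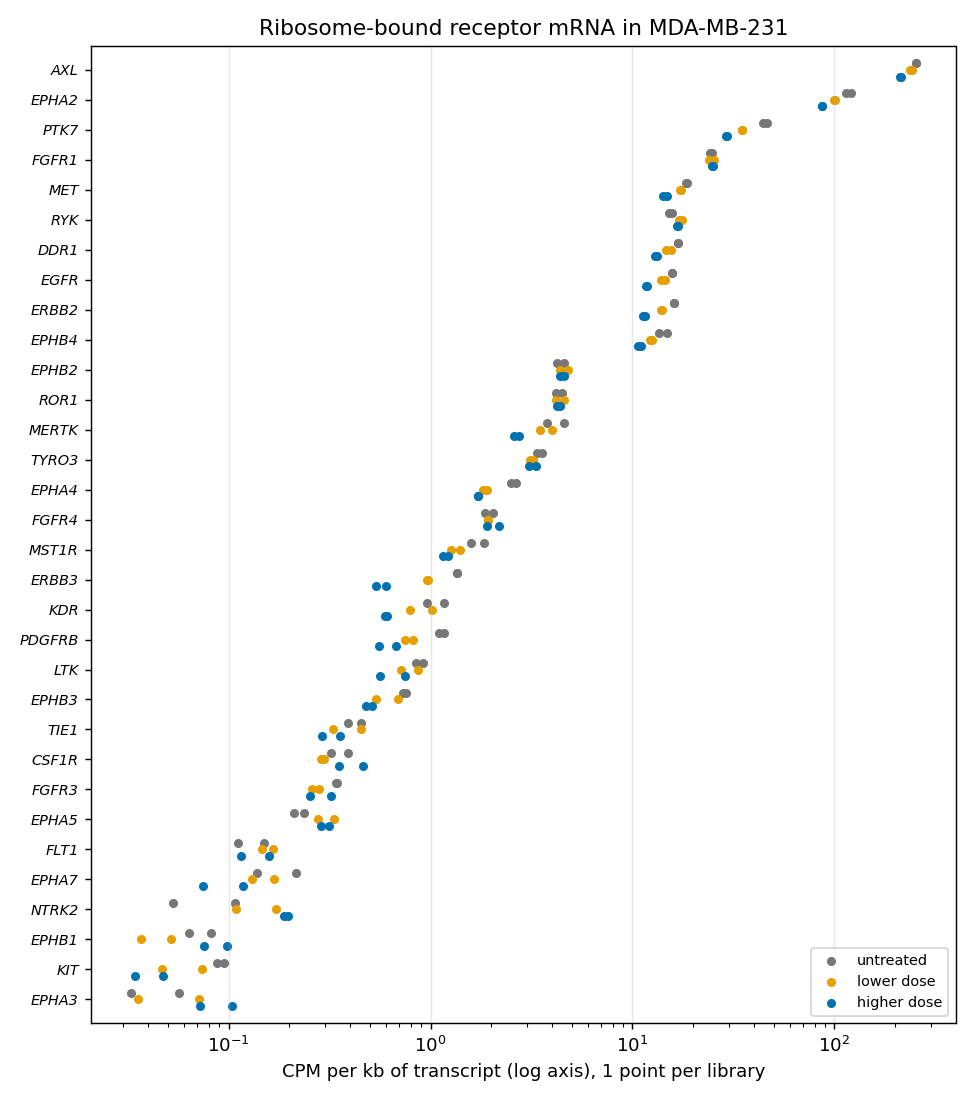
Levels of the 32 tested receptors in each library, as CPM per kb of transcript on a log axis, 1 point per library and 1 row per receptor. The 13 receptors not tested are not drawn. AXL lies at 211 to 254 CPM per kb, above all other receptors in every library, while EPHB1, KIT and EPHA3 have means under 0.1.

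Promoter sequences of RefSeq were available for 42 receptors, none for ERBB3, FGFR1 and FLT4, as the window from 250 bases before to 50 bases after the start site in the gene's 5′-most RefSeq entry (build GRCh38.p14, whereas the submitters' processing notes name hg19; no count was matched to a window by coordinate). GENCODE 29, used here for lengths, starts NTRK2 and some other receptors at another base, so a window does not always surround the start in that annotation. It can lie far away: EPHB1 starts at chr3:134597801 there, while its window is chr3:134795010-134795309. Such windows are included in the counts of motifs and CpG below. The windows of 4 receptors are printed 5′ to 3′ on the gene's strand: the 2 most abundant receptors (AXL at chr19:41218973-41219272 on the plus strand, EPHA2 at chr1:16156020-16156319 on the minus strand), the abundant receptor with the largest fall (PTK7 at chr6:43076064-43076363, plus strand), and the receptor that rose by 1.5-fold or more (NTRK2 at chr9:84669056-84669355, plus strand). Capitals mark the GC box letters GGGCGG and the forkhead core letters GTAAACA, searched on both strands, so that TGTTTAC in NTRK2 is the forkhead core on the other strand.
AXL: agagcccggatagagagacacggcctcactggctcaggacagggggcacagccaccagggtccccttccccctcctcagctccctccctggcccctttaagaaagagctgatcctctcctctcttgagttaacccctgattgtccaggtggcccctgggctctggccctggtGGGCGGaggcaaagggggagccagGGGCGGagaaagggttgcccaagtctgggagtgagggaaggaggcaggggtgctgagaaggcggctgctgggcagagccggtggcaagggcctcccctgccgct
EPHA2: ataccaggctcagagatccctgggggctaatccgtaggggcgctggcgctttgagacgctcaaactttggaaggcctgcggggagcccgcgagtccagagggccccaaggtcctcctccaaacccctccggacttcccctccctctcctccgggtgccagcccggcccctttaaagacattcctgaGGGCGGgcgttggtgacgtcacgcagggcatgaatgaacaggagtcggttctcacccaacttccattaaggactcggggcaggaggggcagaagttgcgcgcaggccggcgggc
PTK7: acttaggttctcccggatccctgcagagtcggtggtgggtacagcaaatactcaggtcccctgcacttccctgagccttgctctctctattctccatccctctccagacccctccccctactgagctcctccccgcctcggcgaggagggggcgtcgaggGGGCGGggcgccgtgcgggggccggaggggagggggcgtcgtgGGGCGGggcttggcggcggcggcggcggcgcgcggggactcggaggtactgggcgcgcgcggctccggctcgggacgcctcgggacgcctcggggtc
NTRK2: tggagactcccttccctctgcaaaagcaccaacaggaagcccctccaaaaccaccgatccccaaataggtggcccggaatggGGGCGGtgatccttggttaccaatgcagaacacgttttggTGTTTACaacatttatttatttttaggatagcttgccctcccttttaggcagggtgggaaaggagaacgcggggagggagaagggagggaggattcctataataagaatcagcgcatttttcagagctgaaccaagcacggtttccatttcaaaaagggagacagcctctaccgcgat
The AXL and PTK7 windows hold 2 GC boxes each, and those of EPHA2 and NTRK2 hold 1 each. A GC box was found in 14 of the 17 windows of receptors that fell at the higher dose, in 10 of the 13 windows of the other receptors tested and in 8 of the 12 windows of receptors not tested, against 44.5% of the 27305 genes with a window. These are more genes than the 21619 counted here. Shares over the genes tested, or over windows of like CpG content, were not computed. The forkhead core was found in NTRK2 and in no other receptor, against 3.44% of all genes. The E-box letters CACGTG were found in MET and in no other receptor (7.41% of all genes), the AP-1 letters TGANTCA in ERBB2, TYRO3, PDGFRA, CSF1R and DDR2 (7.72%) and the TATA box letters TATAAA in FLT1 and DDR2 (12.0%). The median number of CpG dinucleotides in a window was 24.5 over tested receptors, 20 over receptors not tested and 13 over all genes. No motif's letters contain those of another, and a match describes letters only.

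At the higher dose against untreated cells, 18 of the 32 tested receptors fell, 3 rose and 11 did not pass the threshold (edgeR quasi-likelihood test, Benjamini-Hochberg adjusted p under 0.05 over all 13548 genes tested). Of the 10 most abundant receptors per kb, AXL, EPHA2, PTK7, MET, DDR1, EGFR, ERBB2 and EPHB4 fell, RYK rose and FGFR1 was not called. Lower calls made up 56.25% of the tested receptors and 28.2% of all genes tested, of which 28.1% were called higher and 56.3% in all. The median log2 fold change was -0.37 over the tested receptors and -0.00 over all genes. By 1.5-fold or more, 7 receptors fell (ERBB3, KIT, PDGFRB, EPHA7, KDR, MERTK and PTK7) and NTRK2 rose, beside 4.08% of all genes lower and 2.82% higher by that much. Reads of all 45 receptors together were 0.22% and 0.219% of a library at the higher dose, against 0.275% and 0.272% in untreated cells. In DESeq2 14 receptors fell and 1 rose: the calls of EPHA5, EPHA7, EPHB3, LTK and RYK were lost, and KIT was given no adjusted p. There 29 receptors had an adjusted p, and 21.5% of the 13106 genes with one were called lower.

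At the lower dose against untreated cells, 12 receptors fell, 2 rose (RYK and NTRK2) and 18 did not pass. Lower calls made up 37.5% of the tested receptors and 15.9% of all genes tested, of which 16.7% were called higher and 32.6% in all. The median log2 fold change was -0.17 over the tested receptors and -0.00 over all genes. NTRK2 rose by 1.5-fold or more, beside 0.399% of all genes. The number that fell by that much was 0 in edgeR, 0 at an unadjusted p under 0.05 and 0 in DESeq2, beside 0.362% of all genes. All 12 that fell here were among the 18 that fell at the higher dose, but both comparisons use the same untreated libraries. The matching share over all genes was not computed, so the overlap is a description only. The 6 receptors that fell at the higher dose and were not called at the lower dose were MERTK, KIT, KDR, EPHA7, EPHB3 and LTK. In DESeq2, where 10 fell and 1 rose, the lower-dose calls of MET and MST1R were lost and NTRK2 was given no adjusted p. DESeq2 gave 20 receptors an adjusted p there, and 11.4% of the 10701 genes with one were called lower.

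The comparison of the higher dose with the lower dose, which does not use the untreated libraries for its difference, gave 12 receptors that fell and 0 that rose. At an unadjusted p under 0.05 edgeR gave 1 receptor that was higher, and DESeq2 gave 0 at either threshold. Lower calls made up 37.5% of the tested receptors and 17.6% of all genes tested, of which 16.4% were called higher and 34% in all. The 12 were AXL, DDR1, EGFR, EPHA2, EPHB4, ERBB2, ERBB3, MERTK, MET, PTK7, KDR and PDGFRB, and the median log2 fold change of the 32 tested receptors was -0.19, against -0.00 over all genes. ERBB3 fell by 1.5-fold or more (0.856% of all genes lower by that much, 0.472% higher). The call of PDGFRB was lost in DESeq2.

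**Figure D2:**
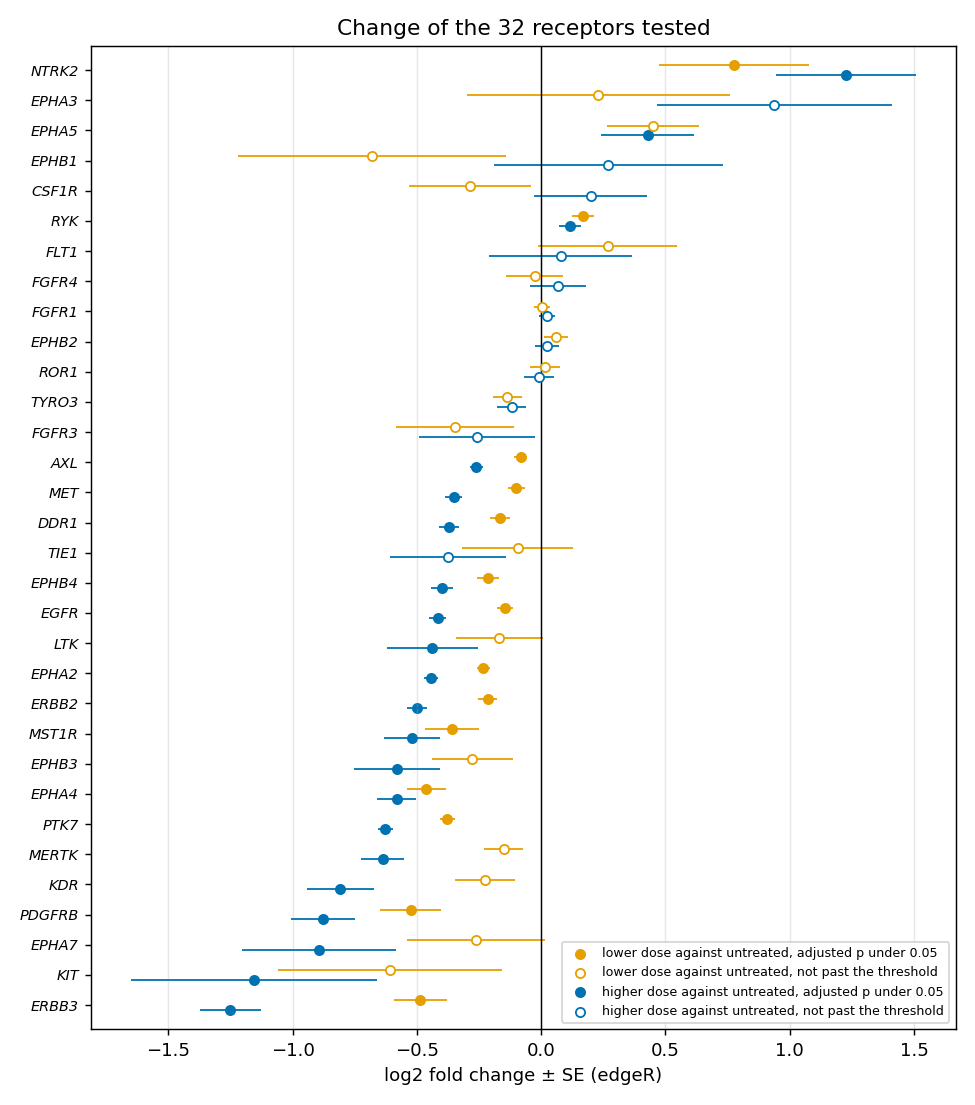
Log2 fold changes ± SE of the 32 tested receptors, lower dose against untreated and higher dose against untreated. ERBB3 lies lowest at -1.25 and NTRK2 highest at 1.23 at the higher dose, and FGFR1 and ROR1 lie at 0.02 and -0.01.

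With a smooth trend on transcript length and GC content taken out of each library, the receptors' median log2 fold change at the higher dose was -0.27, with 0.01 over all genes. In that fit 16 receptors fell and 5 rose, beside 26.4% of all genes called lower and 54.8% called in all. EGFR then stood at -0.28, EPHA2 at -0.34, AXL at -0.15, PTK7 at -0.51 and ERBB3 at -1.13, all still called. KIT and LTK lost their call, while FGFR1 (0.17, adjusted p = 6.26e-07) and EPHB2 (0.20, adjusted p = 0.000119) were called as higher. At the lower dose the same correction ended the calls of AXL (-0.03), DDR1 (-0.08) and MET (-0.07), and called EPHA5 (0.47), EPHB2 (0.17) and FGFR1 (0.09) as higher. Between the doses it ended the call of PDGFRB (-0.29, adjusted p = 0.0978) and called FGFR1 (0.08) as higher.

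**Figure D3:**
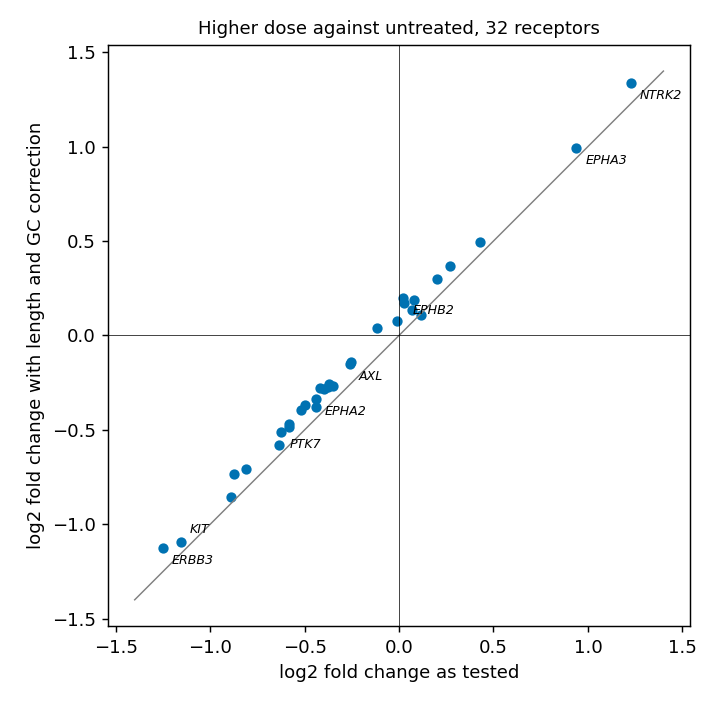
Log2 fold change of the 32 tested receptors at the higher dose against untreated, as tested on the x axis and with the length and GC correction on the y axis. AXL moves from -0.26 as tested to -0.15 with the correction, and FGFR1 and EPHB2 lie above 0 with it.

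The ErbB family binds EGF-like ligands and neuregulins, and its 3 tested members, EGFR, ERBB2 and ERBB3, fell in all 3 comparisons. The lower-dose call of EGFR ended with the length and GC correction and a replicate term together (-0.08, adjusted p = 0.0521). EGFR had 154 and 153 CPM in the untreated libraries, 135 and 143 CPM at the lower dose and 116 and 115 CPM at the higher dose. The groups did not overlap, and each step was down. EGFR changed by -0.14 ± 0.03 on the log2 scale at the lower dose (adjusted p = 0.000294) and by -0.42 ± 0.03 at the higher dose (adjusted p = 2.91e-16). ERBB2, the ligand-less partner of the family, had 77.3 and 77.1 CPM in the untreated libraries, 66.8 and 66.2 at the lower dose and 55.0 and 54.3 at the higher dose, with log2 fold changes of -0.22 (adjusted p = 8.96e-06) and -0.50 (adjusted p = 3.53e-16) against untreated cells. ERBB3, the neuregulin receptor that recruits PI3K, was much less abundant and changed most: 7.99 and 8.05 CPM in the untreated libraries, 5.68 and 5.78 CPM at the lower dose and 3.19 and 3.55 CPM at the higher dose. Its 3 groups were fully apart, and it fell by 57.9% at the higher dose. The log2 fold change of ERBB3 was -0.49 ± 0.11 at the lower dose (adjusted p = 0.000278), -1.25 ± 0.12 at the higher dose (adjusted p = 4.03e-13) and -0.76 ± 0.13 between the doses (adjusted p = 3.88e-06). Among the receptors it alone stayed called between the doses when the test was made against a fold of 1.2 in place of no change.

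MET, the receptor of hepatocyte growth factor, and MST1R, that of macrophage-stimulating protein, both fell at each dose. Of all genes tested 15.9% fell at the lower dose and 28.2% at the higher dose. MET had 123 and 123 CPM in the untreated libraries, 116 and 114 CPM at the lower dose and 98.6 and 94.1 CPM at the higher dose. The groups did not overlap, and the change was small at the lower dose (log2 fold change -0.10, adjusted p = 0.0176) and larger at the higher dose (-0.35, adjusted p = 4.71e-13). MST1R had 8.33 and 7.22 CPM in the untreated libraries, 6.37 and 5.71 CPM at the lower dose and 5.25 and 5.55 CPM at the higher dose, and the dose groups overlapped neither with untreated cells nor with each other. Its log2 fold changes were -0.36 (adjusted p = 0.00842) and -0.52 (adjusted p = 8.29e-05) against untreated cells, and -0.16 between the doses (adjusted p = 0.318). The lower-dose calls of both ended without untreated replicate a (MET -0.10, adjusted p = 0.0555; MST1R -0.26, adjusted p = 0.148) and without lower dose replicate b (MET -0.09, adjusted p = 0.121; MST1R -0.28, adjusted p = 0.114).

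Of the TAM receptors, which bind GAS6 and protein S, AXL and MERTK fell at the higher dose and TYRO3 was not called. AXL had 1202 and 1205 CPM in the untreated libraries, 1120 and 1153 CPM at the lower dose and 1008 and 1000.5 CPM at the higher dose. The groups did not overlap, although the change was among the smaller ones: -0.08 ± 0.03 at the lower dose (adjusted p = 0.00964) and -0.26 ± 0.03 at the higher dose (adjusted p = 6.53e-13), a fall of 16.5%. Without lower dose replicate a the lower-dose value of AXL was -0.06 (adjusted p = 0.158). MERTK, known for the uptake of dying cells, had 18.1 and 15.0 CPM in the untreated libraries, 13.9 and 15.8 CPM at the lower dose and 10.9 and 10.3 CPM at the higher dose. Lower-dose and untreated libraries of MERTK overlapped (-0.15 ± 0.08, adjusted p = 0.149), and those at the higher dose lay below all others (-0.64 ± 0.09, adjusted p = 7.3e-09 against untreated; -0.49 ± 0.09, adjusted p = 1.11e-05 against the lower dose). MERTK was called at the lower dose without untreated replicate b (-0.29, adjusted p = 0.0072) or without lower dose replicate b (-0.25, adjusted p = 0.0448). TYRO3 had 27.7 and 29.3 CPM in the untreated libraries, 25.6 and 26.3 CPM at the lower dose and 25.1 and 27.5 CPM at the higher dose. Its log2 fold changes were -0.14 (adjusted p = 0.0676) and -0.12 (adjusted p = 0.0831), and TYRO3 was called as lower without untreated replicate a (-0.18 at the lower dose, adjusted p = 0.0471; -0.16 at the higher dose, adjusted p = 0.0463) and, at the higher dose, without higher dose replicate b (-0.18, adjusted p = 0.0341). A pseudogene, TYRO3P, can share its reads.

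No FGF receptor passed the threshold in any comparison. FGFR1, the most abundant of them, had 150 and 147 CPM in the untreated libraries, 145 and 153 CPM at the lower dose and 152 and 150 CPM at the higher dose. The lower-dose libraries spanned the other groups, and the log2 fold change at the higher dose was 0.02 ± 0.03 (adjusted p = 0.554), although the length and GC correction called it as higher. FGFR4 had 5.84 to 6.81 CPM over the 6 libraries with a higher-dose log2 fold change of 0.07 (adjusted p = 0.643), and FGFR3, which has several pseudogenes, had 32 to 46 reads in a library (-0.26, adjusted p = 0.365).

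In the PDGF receptor family, PDGFRB and KIT fell at the higher dose, CSF1R was not called and PDGFRA was too low to test. PDGFRB, the receptor for PDGF-BB of stromal and mesenchymal cells, had 6.66 and 6.27 CPM in the untreated libraries, 4.29 and 4.67 CPM at the lower dose and 3.87 and 3.16 CPM at the higher dose. The 3 groups did not overlap. It changed by -0.52 ± 0.12 at the lower dose (adjusted p = 0.000522) and by -0.88 ± 0.13 at the higher dose (adjusted p = 5.75e-08), a fall of 45.5%. Between the doses the change of PDGFRB was -0.35 ± 0.14 (adjusted p = 0.0451), and it was not called without lower dose replicate a (-0.41, adjusted p = 0.0599), lower dose replicate b (-0.29, adjusted p = 0.240) or higher dose replicate b (-0.21, adjusted p = 0.403). KIT, the stem cell factor receptor, rested on 12 and 15 reads in untreated cells, 11 and 7 reads at the lower dose and 5 and 7 reads at the higher dose. Both doses lay below untreated cells and overlapped each other in CPM, and at the higher dose it had a log2 fold change of -1.15 ± 0.50 (adjusted p = 0.0429) that was not called without any 1 of the 6 libraries (adjusted p = 0.0517 to 0.201). CSF1R, a macrophage receptor, had 33 to 52 reads in a library, and its log2 fold change at the higher dose was 0.20 (adjusted p = 0.479).

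KDR, the main VEGF receptor of endothelium, fell at the higher dose, and FLT1 was not called. KDR had 7.04 and 5.84 CPM in the untreated libraries, 4.78 and 6.16 CPM at the lower dose and 3.62 and 3.69 CPM at the higher dose. The lower-dose libraries overlapped the untreated ones (-0.23, adjusted p = 0.154), while both higher-dose libraries were lower than all others (-0.81 ± 0.13, adjusted p = 7.55e-07). Between the doses KDR changed by -0.58 ± 0.14 (adjusted p = 0.000643), or by -0.39 without lower dose replicate b (adjusted p = 0.0816). At the lower dose KDR was called without untreated replicate b (-0.37, adjusted p = 0.0436) or lower dose replicate b (-0.42, adjusted p = 0.0272). The endothelial marker CDH5 had 0 reads in every library, and PECAM1, with 41 and 32 reads at the higher dose against 51 and 50 in untreated cells, was not called. FLT1 had 23 to 34 reads in a library (log2 fold change 0.08 at the higher dose, adjusted p = 0.838), and TIE1, an orphan receptor of endothelium, had 32 to 51 (-0.37, adjusted p = 0.175).

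DDR1, a collagen receptor, had 70.1 and 69.7 CPM in the untreated libraries, 60.8 and 64.0 CPM at the lower dose and 54.8 and 53.4 CPM at the higher dose. The groups did not overlap, and DDR1 fell in each comparison: -0.16 at the lower dose (adjusted p = 0.000976), -0.37 at the higher dose (adjusted p = 3.02e-11) and -0.21 between the doses (adjusted p = 7.51e-05). DDR2, the collagen receptor of mesenchymal cells, had 5 to 16 reads in a library.

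Eph receptors bind ephrins on neighbouring cells, and 5 of the 9 tested fell at the higher dose, 1 rose and 3 were not called, where 28.2% of all genes fell and 28.1% rose. EPHA2 had 479 and 454 CPM in the untreated libraries, 397 and 398 CPM at the lower dose and 343 and 344 CPM at the higher dose. The groups were well apart, with log2 fold changes of -0.23 ± 0.03 (adjusted p = 1.62e-09) and -0.44 ± 0.03 (adjusted p = 6.72e-20) against untreated cells and a fall of 26.4% at the higher dose. EPHA4 had 16.8 and 15.9 CPM in the untreated libraries, 11.6 and 12.1 CPM at the lower dose and 10.9 and 11.0 CPM at the higher dose. Most of its change was present at the lower dose: -0.46 ± 0.08 there (adjusted p = 3.04e-06), -0.58 ± 0.08 at the higher dose (adjusted p = 7.17e-09) and -0.12 ± 0.08 between the doses (adjusted p = 0.291). EPHA7 had 0.913 and 1.42 CPM in the untreated libraries, 1.11 and 0.865 CPM at the lower dose and 0.781 and 0.492 CPM at the higher dose. The higher-dose libraries lay below the others, but its log2 fold change of -0.89 ± 0.31 (adjusted p = 0.012) was not called without untreated replicate b (-0.52, adjusted p = 0.302) or higher dose replicate b (-0.60, adjusted p = 0.182). EPHA5, an Eph receptor of the nervous system, had 1.98 and 1.78 CPM in the untreated libraries, 2.32 and 2.80 CPM at the lower dose and 2.41 and 2.63 CPM at the higher dose. Both doses lay above untreated cells and overlapped each other, with log2 fold changes of 0.45 (adjusted p = 0.0555) and 0.43 ± 0.19 (adjusted p = 0.0461). The higher-dose call of EPHA5 ended without any 1 of the untreated or higher-dose libraries (adjusted p = 0.0669 to 0.223), at the lower dose EPHA5 was called without lower dose replicate a (0.58, adjusted p = 0.0486), and its exons share 535 bases with an antisense gene.

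Among the EphB receptors EPHB4, the receptor of ephrin-B2, had 58.7 and 64.5 CPM in the untreated libraries, 52.6 and 53.9 CPM at the lower dose and 45.9 and 47.9 CPM at the higher dose. The groups did not overlap and EPHB4 fell in each comparison: -0.21 (adjusted p = 0.000104), -0.40 (adjusted p = 5.35e-11) and -0.18 between the doses (adjusted p = 0.00116). EPHB3 had 2.02 and 2.18 CPM at the higher dose, against 3.08 and 3.20 CPM in untreated cells (-0.58 ± 0.17, adjusted p = 0.00349). EPHB2, close to EPHB4 in CPM, had 45.5 to 51.9 CPM with overlapping groups and a higher-dose log2 fold change of 0.02 (adjusted p = 0.728). EPHB1, with 5 to 13 reads in a library, and EPHA3, with 5 to 17, were not called (adjusted p = 0.648 and 0.086 at the higher dose).

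The Wnt-linked receptors went different ways. PTK7 had 197 and 190 CPM in the untreated libraries, 149 and 149 CPM at the lower dose and 126 and 125 CPM at the higher dose. The groups were far apart. PTK7 changed by -0.38 ± 0.03 at the lower dose (adjusted p = 1.78e-14), by -0.63 ± 0.03 at the higher dose (adjusted p = 4.15e-24), a fall of 35.2%, and by -0.25 ± 0.03 between the doses (adjusted p = 9.01e-09). It was the one receptor called at the lower dose when the test was made against a fold of 1.2. RYK, a Wnt-binding pseudokinase with a pseudogene RYKP1 that can share its reads, had 44.8 and 46.0 CPM in the untreated libraries, 50.2 and 52.0 CPM at the lower dose and 49.6 and 48.9 CPM at the higher dose. Both doses lay above untreated cells, and RYK rose by 0.17 ± 0.04 (adjusted p = 0.00236) and 0.12 ± 0.05 (adjusted p = 0.0247). The higher-dose call of RYK ended without untreated replicate a (0.09, adjusted p = 0.142), higher dose replicate a (0.11, adjusted p = 0.121) or higher dose replicate b (0.13, adjusted p = 0.062). ROR1, a receptor for WNT5A, had 24.3 to 26.7 CPM over the 6 libraries with overlapping groups (-0.01 at the higher dose, adjusted p = 0.912).

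NTRK2, the receptor of brain-derived neurotrophic factor, was the one receptor that rose by 1.5-fold or more. It had 0.457 and 0.923 CPM in the untreated libraries (12 and 28 reads), 1.49 and 0.934 CPM at the lower dose (43 and 27 reads) and 1.70 and 1.62 CPM at the higher dose (48 and 46 reads). The higher-dose libraries lay above all others, and the lower dose lay above untreated cells by a narrow margin in 1 library. NTRK2 rose by 1.23 ± 0.28 at the higher dose (adjusted p = 0.000189), a 2.34-fold change, and by 0.77 ± 0.30 at the lower dose (adjusted p = 0.0425). The higher-dose call was kept without each library in turn. At the lower dose it ended without untreated replicate a (0.39, adjusted p = 0.448) or lower dose replicate a (0.40, adjusted p = 0.513), and between the doses it was called without lower dose replicate a (0.83, adjusted p = 0.0443) and not with all libraries (0.45, adjusted p = 0.16). LTK, a receptor related to ALK, had 2.59 and 2.80 CPM in the untreated libraries, 2.63 and 2.18 CPM at the lower dose and 2.27 and 1.72 CPM at the higher dose. Its higher-dose log2 fold change of -0.44 ± 0.18 (adjusted p = 0.0388) was not called without untreated replicate a (-0.49, adjusted p = 0.0543), untreated replicate b (-0.38, adjusted p = 0.177) or higher dose replicate b (-0.25, adjusted p = 0.362).

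**Figure D4:**
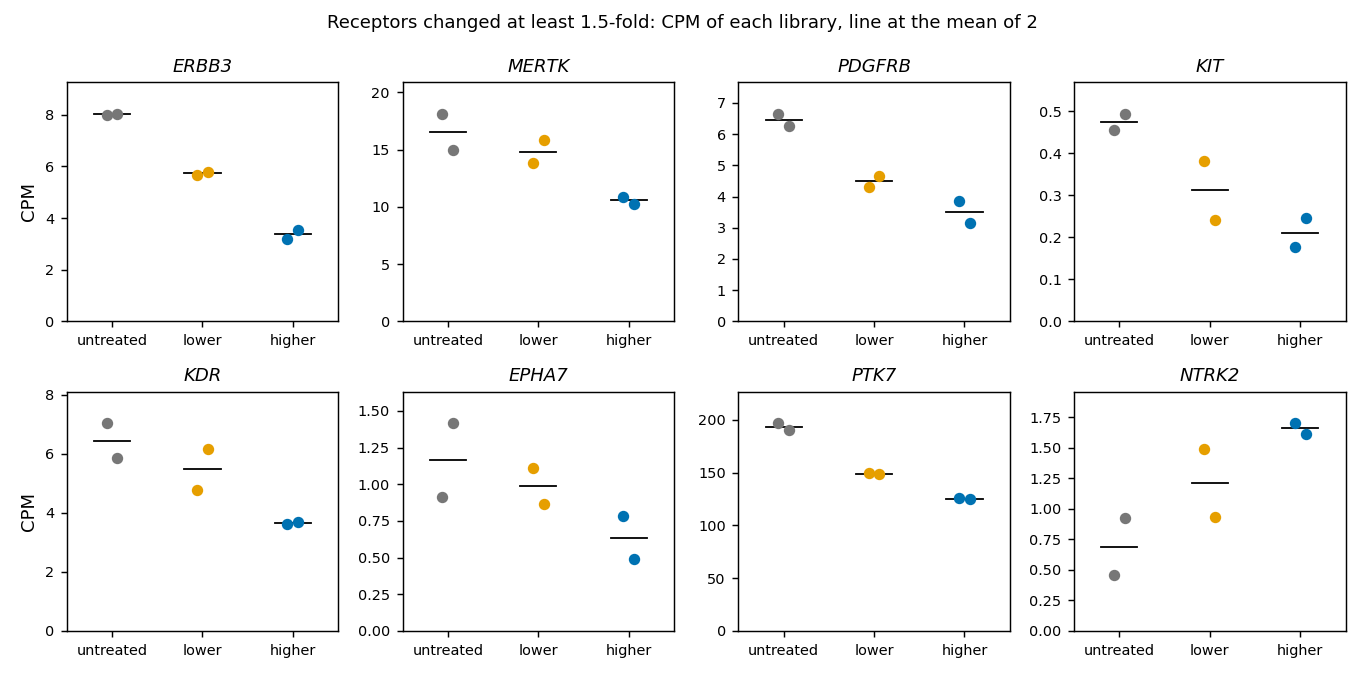
CPM of each library for the 8 receptors that changed by 1.5-fold or more, in untreated cells, at the lower dose and at the higher dose, with a line at the mean of the 2 replicates. ERBB3 falls at each step and has 3.19 and 3.55 CPM at the higher dose against 7.99 and 8.05 CPM in untreated cells, while NTRK2 is highest at the higher dose with 1.70 and 1.62 CPM.

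Among the growth factors that bind these receptors more genes were called higher than lower at each dose against untreated cells, and about as many each way between the doses. Of 45 ligand genes 33 were tested, and at the higher dose against untreated cells 14 rose and 8 fell, beside 28.1% and 28.2% of all genes, and the list had a median of 0.09 on the log2 scale. At the lower dose 12 rose and 5 fell in edgeR, beside 16.7% and 15.9% of all genes. In DESeq2 6 rose and 3 fell there, beside 11.4% of genes called lower and 23.9% called in all. Between the doses 8 rose and 7 fell, beside 16.4% and 17.6% of all genes. PDGFB, a ligand of PDGFRB, had 1.35 and 1.26 CPM at the higher dose against 2.70 and 2.70 CPM in untreated cells (-1.05 ± 0.20, adjusted p = 9.24e-06). FGF1 had 10.4 and 9.55 CPM at the higher dose against 5.48 and 5.01 CPM in untreated cells (0.93 ± 0.11, adjusted p = 8e-11), FGF5 had 54.5 and 56.4 CPM at the higher dose against 30.1 and 29.4 CPM in untreated cells (0.90 ± 0.05, adjusted p = 2.34e-22), and EREG, an EGFR ligand, had 5.04 and 5.44 CPM at the higher dose against 2.74 and 3.17 CPM in untreated cells (0.82 ± 0.14, adjusted p = 1.42e-06). The higher-dose and untreated libraries did not overlap in these 4 genes, which were picked as the called ligands with the largest change. The share of all genes without such overlap was not counted. HGF, the ligand of MET, had 0 reads in every library.

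Ligands of some receptors described above were looked up after their values had been seen. GAS6, the AXL ligand, had 577 and 571 CPM at the higher dose against 717 and 693 CPM in untreated cells, and fell (-0.30 ± 0.03, adjusted p = 2.97e-14). PROS1, which codes for protein S, also fell, with 29.8 and 27.8 CPM at the higher dose against 42.0 and 43.9 CPM in untreated cells (-0.58, adjusted p = 4.04e-14). VEGFA, the KDR ligand, rose, with 245 and 248 CPM at the higher dose against 168 and 168 CPM in untreated cells (0.55 ± 0.03, adjusted p = 3.99e-23). NRG1, an ERBB3 ligand, rose by 0.31 (adjusted p = 4.7e-10), with 81.8 and 82.6 CPM at the higher dose against 65.8 and 66.9 CPM in untreated cells. KITLG, the KIT ligand, rose by 0.64 (adjusted p = 3.11e-11). BDNF, the NTRK2 ligand, had 42.0 and 43.5 CPM at the higher dose against 50.2 and 49.7 CPM in untreated cells, and fell by 0.22 on the log2 scale (adjusted p = 3.15e-05). At the higher dose AXL and GAS6 were thus both lower, as were PDGFRB and PDGFB. KDR with VEGFA, ERBB3 with NRG1, EGFR with EREG, NTRK2 with BDNF and KIT, on few reads, with KITLG went opposite ways. These pairs are a choice among the ligands listed. Of the other PDGF genes PDGFA fell (-0.21), PDGFC rose (0.31) and PDGFD was not called (-0.21, adjusted p = 0.0654).

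Of 8 ephrins 7 were tested, and at the higher dose 2 rose and 2 fell, beside 28.1% and 28.2% of all genes, with a median of 0.04. That is 28.6% of the tested ephrins each way, near the share of all genes. EFNB2, the ligand of EPHB4, had 68.0 and 64.7 CPM at the higher dose against 43.2 and 42.3 CPM in untreated cells (0.63 ± 0.04, adjusted p = 1.41e-18). EFNB1 rose by 0.33 (adjusted p = 0.00358), EFNB3 fell by 0.67 (adjusted p = 0.0211) and EFNA4 fell by 0.26 (adjusted p = 0.0108) on the log2 scale. The calls of the last 3 were lost in DESeq2 and without single libraries: EFNB1 without untreated replicate b (0.28, adjusted p = 0.0548), EFNA4 without untreated replicate a (-0.23, adjusted p = 0.0597) or higher dose replicate b (-0.18, adjusted p = 0.169), and EFNB3 without any 1 of the untreated or higher-dose libraries (adjusted p = 0.0521 to 0.108).

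Of 18 adaptor and docking genes 17 were tested, and at the higher dose 4 rose and 6 fell, beside 28.1% and 28.2% of all genes, with a median of -0.05. With the length and GC correction 5 rose and 3 fell, with a median of -0.03, beside 26.4% of all genes called lower in that fit. FRS2, the docking protein of FGF receptors, rose by 0.49 ± 0.07 (adjusted p = 4.03e-09), with 24.0 and 24.1 CPM at the higher dose against 17.2 and 17.0 CPM in untreated cells. GAB2 fell by 0.43 (adjusted p = 1.51e-07), SOS2, a RAS exchange factor, fell by 0.38 (adjusted p = 9.13e-09), and FRS3 fell by 0.42 (adjusted p = 0.00607) on the log2 scale. The call of FRS3 ended in DESeq2 and without untreated replicate b (-0.21, adjusted p = 0.303).

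Of 25 genes of receptor turnover and shut-off (phosphatases, ubiquitin ligases, inhibitors and shedding proteases) 24 were tested, and at the higher dose 14 fell and 3 rose, beside 28.2% and 28.1% of all genes, with a median of -0.23. With the length and GC correction 12 fell and 3 rose, with a median of -0.13, beside 26.4% of all genes called lower in that fit. PTPRJ, a receptor phosphatase, had 106 and 107 CPM at the higher dose against 170 and 165 CPM in untreated cells (-0.65 ± 0.03, adjusted p = 2.85e-24). PTPRK, another one, had 49.9 and 49.4 CPM at the higher dose against 76.9 and 69.3 CPM in untreated cells (-0.55 ± 0.04, adjusted p = 3.14e-16). ADAM10, a protease that sheds ligands and receptors, had 70.7 and 65.7 CPM at the higher dose against 91.3 and 91.8 CPM in untreated cells (-0.43 ± 0.04, adjusted p = 3.32e-14). CBLB, a ubiquitin ligase of activated receptors, fell by 0.58 on the log2 scale (adjusted p = 1.37e-05). The lists of receptors and of turnover genes thus both had more members lower than higher in these libraries.

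**Figure D5:**
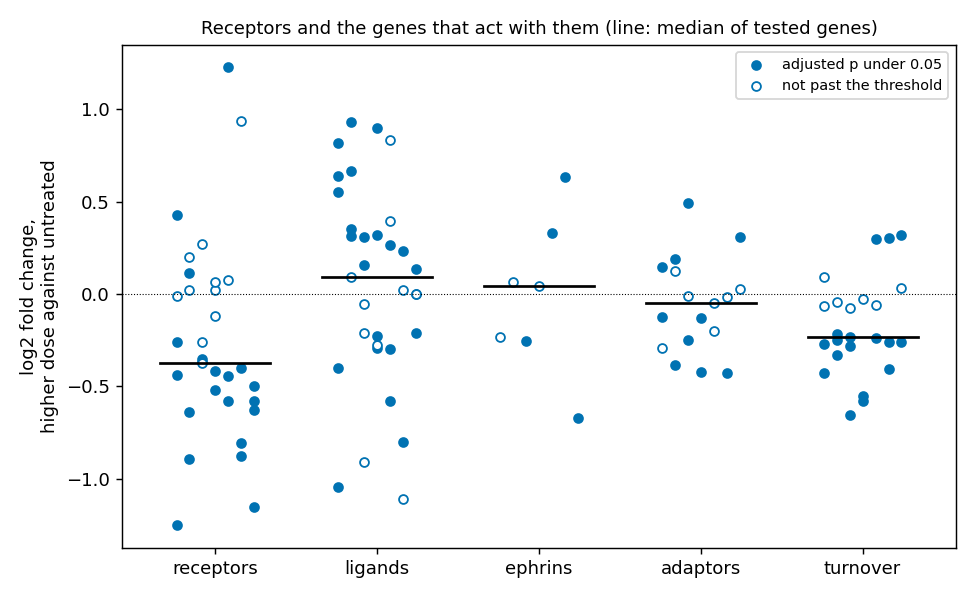
Log2 fold changes, higher dose against untreated, of the tested genes of each list: receptors, ligands, ephrins, adaptors and turnover genes, with a line at each list's median. The medians are -0.37 for receptors, 0.09 for ligands, 0.04 for ephrins, -0.05 for adaptors and -0.23 for turnover genes.

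Without strand in the counts, reads of a receptor and of an antisense neighbour cannot be told apart, and whether strand was used is not given in the sources used here. Besides EPHA5, exons shared with a gene on the other strand reach 327 bases for MST1R, 242 for EPHA4, 194 for ERBB2 (with PGAP3), 186 for EGFR and 67 for AXL in the GENCODE 29 annotation. FGFR3 and FLT1 have pseudogenes that can share their reads. The labels call the 2 replicates of a group biological and say no more, and the p-values measure the spread between these libraries.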

How the data were processed

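Read counts per gene symbol, 1 table for each of the 6 libraries, were deposited by the authors as whole numbers. The submitters' processing notes name CASAVA 1.8.1, TopHat 1.4.0, HTSeq and hg19; the sources used here do not give the annotation or whether strand was used. HTSeq's 5 summary lines (9.40% to 10.2% of reads) were left out. The quasi-likelihood test of edgeR 4.0.16 (R version 4.3.3) was used (TMM scaling, default filter on low counts, robust F test, 3 group means over 6 libraries, two-sided), and p-values were adjusted by Benjamini-Hochberg over the 13548 genes that passed; 8071 did not. Fold changes are fitted values with a prior count. CPM are a gene's reads scaled to the library's reads on tested genes, with the TMM factor of the library (0.997 to 1.003). Levels per kb used GENCODE 29 transcript lengths, found for 45 receptors and 13228 of the tested genes. The script was run on counts simulated with a spread like that estimated from these data, which checks the code and not the reported changes.

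The members, lists and tests were chosen with earlier results of these data known. All receptors are accounted for; those with adjusted p under 0.05 and 1.5-fold, and the most abundant of each family, are given by library, and of each other list up to 4 called genes with the largest change at the higher dose. Alternatives were other scalings, filters and fold thresholds, DESeq2 1.42.0, fits of 2 groups, a replicate block, a length and GC correction, and each library left out. Total RNA was not analysed here. Replicates differed by more than counting noise (chi-square per degree of freedom 1.98 untreated, 1.69 lower dose, 1.52 higher dose). The excess was small: edgeR's common estimate of the spread beyond counting noise was a coefficient of variation of 1.79%. A further marker gene is not reported here.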

Additional observations from a re-analysis of the deposited data

How the results depend on the processing

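For the 8 receptors that changed by 1.5-fold or more, all 3 comparisons were recomputed, also those not called as tested. Fits that did not test a gene or gave it no adjusted p were left out. Of 370 values 333 kept direction and call, or stayed uncalled, 31 lost the call, 5 gained one and 1 changed sign. The sign changed for EPHA7 at the lower dose without untreated replicate b (0.11). Its value was -0.26 with all libraries, with a range down to -0.52 without untreated replicate a. The number of receptors that rose at the lower dose (2) was 1 in DESeq2, 1 with a replicate block, 5 with the length and GC correction alone or with the replicate block, and 0 in a test against a fold of 1.2, and that of receptors that rose at the higher dose (3) was 1, 3, 5 and 1 in the same order. Receptors that rose by 1.5-fold or more at the lower dose (1) were 0 in DESeq2, with the replicate block and against a fold of 1.2. Receptors that fell at the lower dose (12) and between the doses (12) were 1 each against a fold of 1.2. Of all genes 0.465% and 1.45% fell in that test. At the higher dose, where 9.01% of all genes fell in it, AXL, EPHA7, EPHB3, KIT and LTK lost their call. Receptors that fell by 1.5-fold or more at the higher dose (7) were 4 with the length and GC correction, with or without the replicate block. Between the doses 1 receptor rose with the length and GC correction, with or without the block (0 as tested), and 2 fell by 1.5-fold or more with library size alone (1 as tested).

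Leaving out each library in turn gave 1 to 2 receptors that rose and 11 to 14 that fell at the lower dose, 0 to 1 that rose and 0 to 1 that fell by 1.5-fold or more there, 1 to 3 that rose and 15 to 17 that fell at the higher dose, and 6 to 7 that fell by 1.5-fold or more. Between the doses it gave 0 to 1 that rose, 0 to 1 that rose by 1.5-fold or more, 10 to 12 that fell and 1 to 2 that fell by 1.5-fold or more. Of the receptors that fell at the higher dose, 15 of 18 kept the call without each library in turn, as did 9 of 12 at the lower dose and 10 of 12 between the doses. In DESeq2, calls were lost at the lower dose by MET (adjusted p = 0.0980) and MST1R (adjusted p = 0.122), with no adjusted p given for NTRK2, at the higher dose by EPHA5 (0.251), EPHA7 (0.133), EPHB3 (0.0772), LTK (0.235) and RYK (0.154), with none given for KIT, and between the doses by PDGFRB (0.237). The causes were not tested.

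The letters a and b recur in each group, but deviations of same-lettered libraries correlated at -0.03 (higher and lower dose), 0.00 (higher dose and untreated) and -0.04 (lower dose and untreated) over 13548 genes, so the letters were not taken as pairs. With the replicate block the call of NTRK2 at the lower dose was lost (0.77, adjusted p = 0.0501), and no other receptor call changed. With the length and GC correction added to the block, NTRK2 kept that call. The calls then changed as with the correction alone, and that of EGFR at the lower dose was also lost (-0.08, adjusted p = 0.0521). Receptors under about 30 reads in a library (KIT, EPHA3, EPHB1, NTRK2, EPHA7, FLT1) are limited by counting error.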
